A study of Mus musculus with 12 samples.

Results

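The nucleus-encoded subunits of the mitochondrial respiratory chain were followed in mouse astrocytes, in cells sorted on the way to pluripotency, in neural stem cells (NSCs) and in induced pluripotent stem cells (iPSCs). Members were chosen by gene symbol alone. Numbered Nduf genes of the a, b, c, s and v classes stood for complex I, Sdha to Sdhd for complex II, and Cyc1 with the Uqcr genes for complex III. Cox4 to Cox8 genes with an isoform letter stood for complex IV, and Atp5 genes for complex V. Of 19938 genes that had a probe set with a single gene symbol, 78 matched. There were 34 in complex I, 4 in complex II, 9 in complex III, 14 in complex IV and 17 in complex V. Each gene is read from 1 probe set, the one with the highest mean signal over the 12 arrays. Cox7c and Ndufb4 lie only on probe sets that name several genes and were not read.

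Complexes I and II pass electrons from NADH and from succinate to ubiquinone, complex III hands them to cytochrome c, and complex IV gives them to oxygen. Complexes I, III and IV pump protons as they do so, and complex V, the ATP synthase, uses the gradient to make ATP. Astrocytes and neural stem cells are known for active glycolysis, and pluripotent cells are known to lean on it heavily while keeping a working respiratory chain. Subunits encoded in mitochondrial DNA are not members under this rule.

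The 12 samples, in 5 groups, each went onto 1 Affymetrix Mouse Gene 1.0 ST array. Astrocyte iPSCs (2 arrays) are mature lines made from Sox1-GFP astrocytes, and MEF iPSCs (2 arrays) come from the single established line iPS-MEF-Ng-20D-17, made from mouse embryonic fibroblasts (MEFs) with a Nanog-GFP-IRES-Puro reporter. Day 6 cells (3 arrays) are the GFP-positive cells sorted 6 days into reprogramming of astrocytes by retroviruses for Oct4, Klf4, Sox2 and c-Myc. NSCs (2 arrays) were grown from telencephalon taken between embryonic days 12.5 and 14.5, and astrocytes (3 arrays) from the cortex at postnatal day 3, with GFP-negative cells sorted. Every group but MEF iPSCs carries the Sox1-GFP allele with 1 Sox1 copy (Sox1+/-), and GFP in these cells reports Sox1 expression. Astrocytes grew with fetal bovine serum, NSCs in serum-free medium with basic FGF and EGF, and day 6 cells in embryonic stem cell medium with serum and LIF. Both iPSC groups grew with LIF, in serum or serum replacement, on mitomycin C-treated MEF feeder cells. Medium, source and age therefore go with the groups and cannot be told apart from them. The labels do not say whether each replicate had its own animals or culture, although the design text calls the replicates biological. The p-values thus measure the spread between these arrays, and how much of it is technical is not known. Some genes differed widely between the astrocyte replicates. X-linked Xist ran from 9.39 to 10.22 there and the matrix gene Dcn from 6.81 to 8.48 (log2). The median range over all genes was 0.198 in that group.

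Array medians ran from 97.9 to 104.9 intensity units, and Pearson's r between arrays of 1 group across probe sets from 0.992 to 0.996. The labelled cell types had their markers. Summed intensity of the 6 pluripotency markers was 12500 to 14300 in astrocyte iPSCs, 13300 to 13900 in MEF iPSCs, 645 to 732 in day 6 cells, 336 to 354 in NSCs and 341 to 418 in astrocytes. The 7 astrocyte markers summed to 12900 to 15700 in astrocytes and to at most 3380 in any other group. By gene, 6 of the 7 were lower in day 6 cells than in astrocytes. Gja1 was alike in some groups, at log2 9.90 to 10.45 in astrocytes, 10.00 to 10.06 in day 6 cells and 9.89 and 9.96 in MEF iPSCs. S100b was dim throughout, at 5.83 to 6.14 in astrocytes and 5.32 to 5.52 elsewhere. Markers of NSCs (5 measured) summed to 17500 to 18200 in NSCs and 14000 to 15800 in astrocytes, but to only 1100 to 1250 in day 6 cells. Bright genes such as Fabp7 weigh most in this sum. By gene, 4 of the 5 were lower in day 6 cells than in NSCs. Pax6 was higher, at log2 8.45 to 8.57 in day 6 cells against 7.94 and 7.98 in NSCs. Fibroblast and feeder markers (6 genes) summed to 3150 to 5510 in astrocyte iPSCs and 2480 to 2590 in MEF iPSCs, against 740 to 817 in day 6 cells and 4450 to 5160 in astrocytes. In astrocytes the sum was carried by Thy1, a surface protein also made by other cells, at log2 11.70 to 11.87. Dcn, a matrix proteoglycan of fibroblasts, stood at 10.48 and 11.26 in astrocyte iPSCs and 10.03 and 9.92 in MEF iPSCs, against 6.31 to 6.54 in day 6 cells and 6.81 to 8.48 in astrocytes. These markers were thus higher in both iPSC groups than in day 6 cells, and the part of feeder RNA in the results below was not tested. Neuron markers (4 genes) summed to 983 to 1440 in NSCs and to at most 364 in any other group. NSC replicate 2 was above replicate 1 in each of the 4, from 7.35 against 7.21 in Rbfox3 to 8.05 against 7 in Tubb3. The part of neuron RNA in the comparisons with NSCs was not tested.

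Chain subunits varied less between groups than genes did in general. The range of the 5 group means had a median of 0.43 on the log2 scale over the 78 members and 0.58 over all genes. It exceeded 1 in 3 members (Ndufc2, Sdha and Cox7a1), exceeded 0.5 in 31 and was under 0.25 in 11. Within a group, the median range between arrays of members was 0.08 in astrocyte iPSCs, 0.075 in MEF iPSCs, 0.152 in day 6 cells, 0.125 in NSCs and 0.196 in astrocytes. The NSC arrays differed by over 0.5 in 6 members, and replicate 1 was above replicate 2 in 51 of 78. In bulk RNA, fewer cells of a type and less RNA per cell cannot be told apart, here or below.

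**Figure D1:**
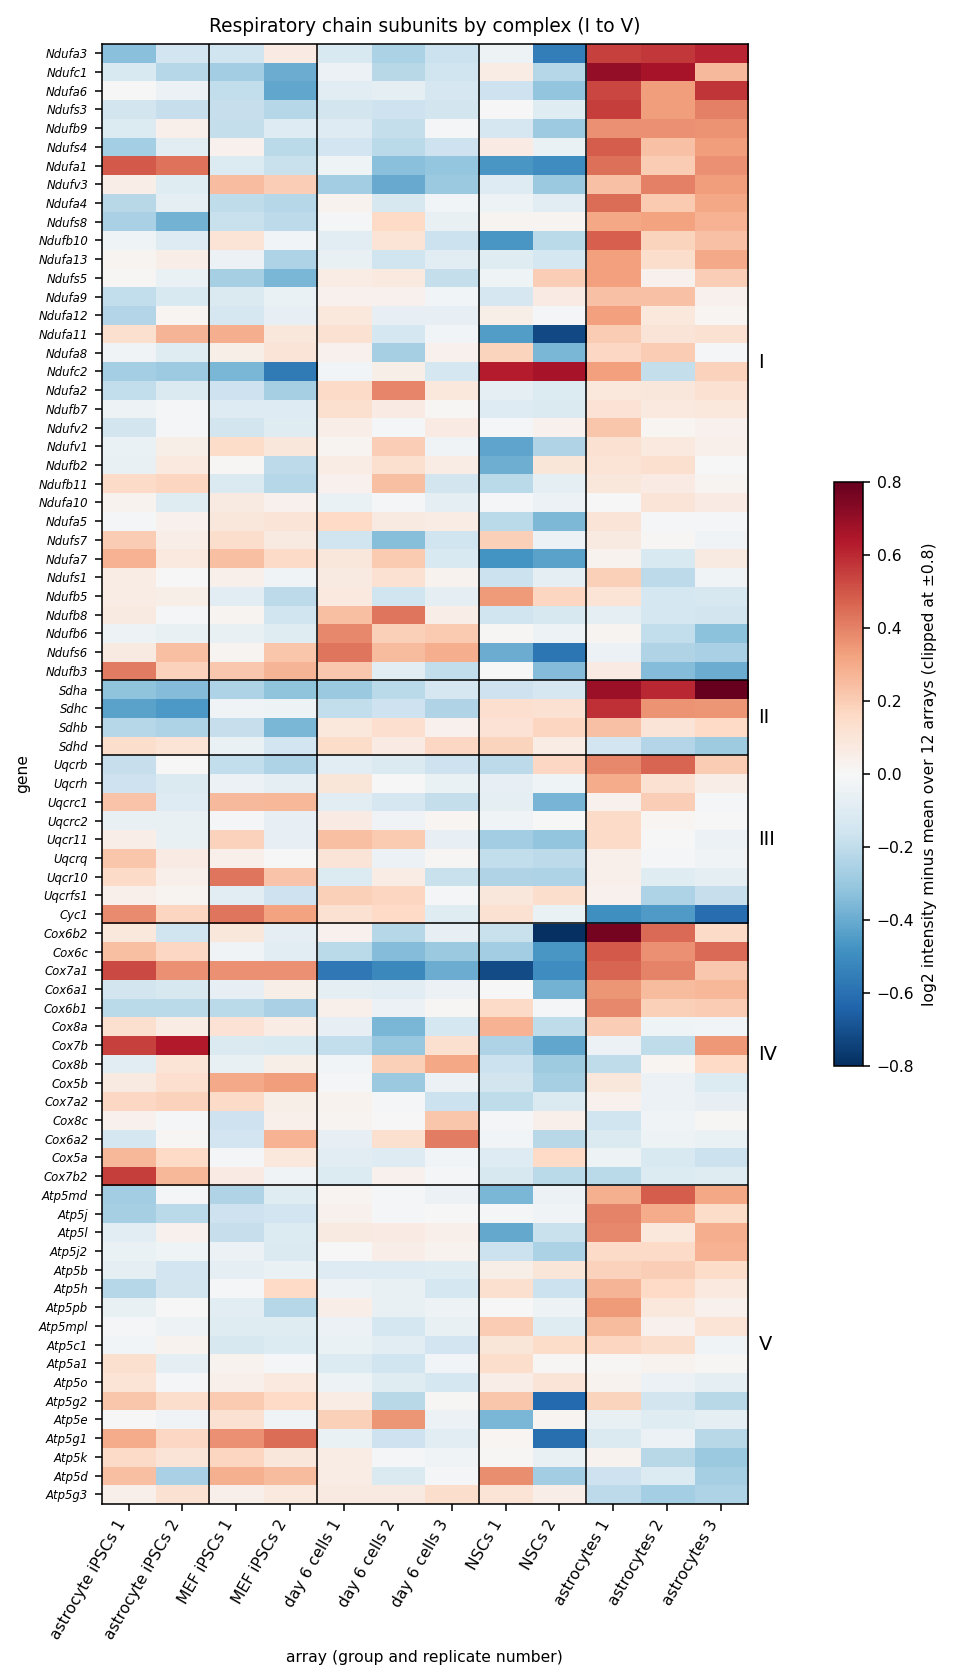
Log2 intensity of each of the 78 subunits (rows, grouped by complex I to V) on each of the 12 arrays (columns), as the difference from the gene's mean over all arrays, with colour clipped at ±0.8. The astrocyte columns are red for 22 genes that lay above all other arrays there, Sdha among them, and blue for Cyc1, Atp5g3 and Sdhd.

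The first comparison asks how the sorted day 6 cells differed from the astrocytes that received the factors. At a Benjamini-Hochberg adjusted p under 0.05 in limma, 27 subunits were lower and 7 higher in day 6 cells, and 44 were not called. Among all genes 25.1% were called lower and 23.8% higher (48.9% in either direction), so subunits were called about as often as other genes and were more often lower. The median log2 fold change was -0.15 over subunits and 0.04 over all genes. Because subunits are bright, the 2359 genes with a mean log2 intensity between 9 and 10.67, the quartiles of the members, are given too: 32.9% of those were lower, 47.8% higher, and their median was 0.18. The members' share of lower calls (34.6%) was thus near that of genes of like brightness, and their share of higher calls (8.97%) was below it. Cyclic loess scaling of the arrays moved the split to 54 lower and 2 higher, with a member median of -0.43. It moved other genes too: 29.1% of all genes were then lower and 20% higher. Genes of like brightness were then 44.8% lower and 36.4% higher, with a median of -0.09.

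Subunits were also more often lower than higher in the other groups set against astrocytes. These comparisons share the astrocyte arrays, and their counts are therefore not independent. In astrocyte iPSCs 28 subunits were lower and 10 higher than in astrocytes (26.2% lower, 24.8% higher and 51% in either direction among all genes), with a median of -0.09 against 0.01 over all genes. Without replicate 1 of the astrocyte iPSCs the lower count was 17, and without either of their arrays the higher count was 6. Shares of all genes are not given for fits with an array left out, here or below. A change in power there cannot be told from one in the subunits. In NSCs 32 subunits were lower and 6 higher than in astrocytes (23.3%, 22.6% and 45.9% among all genes), with medians of -0.20 and -0.03. Genes of like brightness were 36.1% lower and 46.7% higher in astrocyte iPSCs, and 29.6% lower and 45.5% higher in NSCs. Cyclic loess gave 45 lower and 3 higher subunits in astrocyte iPSCs, and 55 lower and 1 higher in NSCs. Under loess 29.2% of all genes were lower and 22.6% higher in astrocyte iPSCs, and 23.8% and 22.1% in NSCs. Genes of like brightness were then 45.2% lower and 37.1% higher in astrocyte iPSCs, and 38.7% and 36.3% in NSCs.

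Differences among the cells other than astrocytes were fewer. Against NSCs, day 6 cells had 14 subunits higher and 6 lower (20% higher, 18.4% lower and 38.4% in either direction among all genes), with medians of 0.06 and 0.07. With cyclic loess the split turned to 8 higher and 9 lower (14.3% and 22% among all genes under loess). With arrays centred on the median it was 11 higher and 3 lower (19.6% and 17.9% among all genes so centred). The lower count was 2 without day 6 replicate 2 or NSC replicate 1, and 3 without day 6 replicate 3. Astrocyte iPSCs had 9 subunits higher and 6 lower than day 6 cells (15.5%, 14% and 29.6% among all genes), with medians of -0.01 and -0.03. Without astrocyte iPSC replicate 1 those counts were 4 and 2, and the lower count was 3 without astrocyte iPSC replicate 2 or day 6 replicate 1. Subtracting a possible constant of 16 before log2 gave 7 higher and 3 lower (14.9% and 13.8% among all genes so treated). Between the iPSC groups 3 subunits were higher and 1 lower in astrocyte iPSCs (3.28%, 2.49% and 5.77% among all genes). The higher count was 0 without astrocyte iPSC replicate 1 or MEF iPSC replicate 2, and 1 without MEF iPSC replicate 1 or day 6 replicate 1. The 1 lower call was lost when any single iPSC array was left out.

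**Figure D2:**
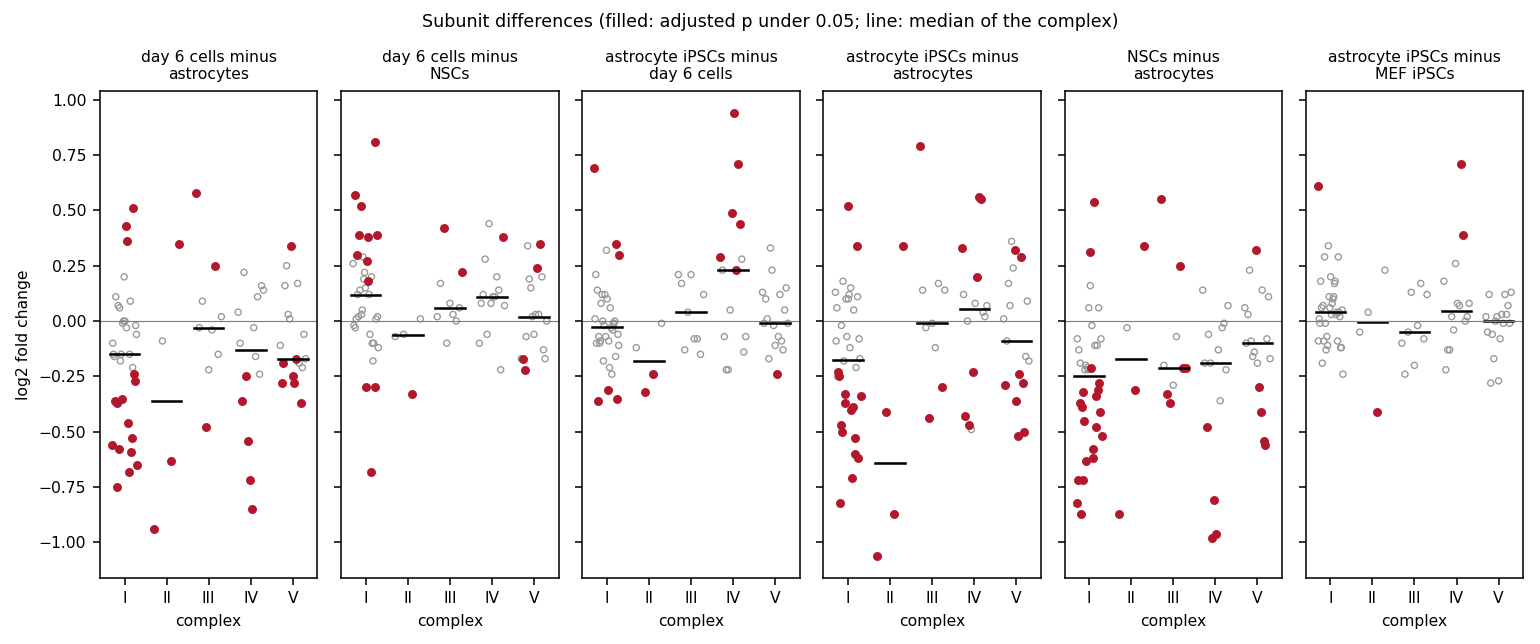
Log2 fold change of every subunit (circles) by complex in the 6 comparisons, filled where the adjusted p was under 0.05, with the median of each complex as a line. Complexes I and II lie mostly below 0 against astrocytes, with Sdha the lowest at -1.06 in astrocyte iPSCs, and complex IV lies mostly above 0 in astrocyte iPSCs minus day 6 cells.

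The changes were small in size. Under a second rule that also asks for a 2-fold difference, Sdha in astrocyte iPSCs minus astrocytes was the 1 subunit called, where 20.8% of all genes passed. None passed in day 6 cells minus astrocytes (16.9% of all genes), day 6 cells minus NSCs (8.88%), astrocyte iPSCs minus day 6 cells (6.11%), NSCs minus astrocytes (14.6%) or astrocyte iPSCs minus MEF iPSCs (0.742%). The adjusted p rule without a fold limit is used from here on. Over the 6 comparisons 55 subunits were called at least once and 23 never. The uncalled ones included Ndufs1, an iron-sulfur core subunit of complex I, the complex III core proteins Uqcrc1 and Uqcrc2, and the alpha subunit of ATP synthase, Atp5a1.

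Promoters of 4 members are shown because these genes carry the patterns described below: Sdha was the gene farthest below its astrocyte level, its partner Sdhd went the other way, Ndufs6 was highest in day 6 cells, and Cox7a1 was low in day 6 cells and NSCs. Each runs from 250 bases before to 50 after the RefSeq start in build GRCm38.p6. Capitals mark matches, on either strand, to the NRF1 and YY1 consensus or to the letters CCGGAAG (GABPA) and TNAAGGTCA (ERR), factors known for binding promoters of mitochondrial genes. Sdha lies at chr13:74350191-74350490 on the minus strand, Sdhd at chr9:50603800-50604099 on the minus strand, Ndufs6 at chr13:73328433-73328732 on the minus strand and Cox7a1 at chr7:30183921-30184220 on the plus strand.
Sdha: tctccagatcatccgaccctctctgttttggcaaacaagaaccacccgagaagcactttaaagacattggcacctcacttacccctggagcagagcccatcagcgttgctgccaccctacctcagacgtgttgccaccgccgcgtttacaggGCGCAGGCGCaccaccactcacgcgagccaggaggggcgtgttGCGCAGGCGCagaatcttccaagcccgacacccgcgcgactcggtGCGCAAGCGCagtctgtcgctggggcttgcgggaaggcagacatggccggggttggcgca
Sdhd: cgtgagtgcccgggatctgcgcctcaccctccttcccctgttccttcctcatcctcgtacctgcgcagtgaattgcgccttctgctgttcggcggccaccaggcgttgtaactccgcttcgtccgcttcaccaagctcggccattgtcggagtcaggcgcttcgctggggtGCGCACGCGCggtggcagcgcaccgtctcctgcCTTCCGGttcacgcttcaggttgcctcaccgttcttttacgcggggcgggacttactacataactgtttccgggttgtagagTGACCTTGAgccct
Ndufs6: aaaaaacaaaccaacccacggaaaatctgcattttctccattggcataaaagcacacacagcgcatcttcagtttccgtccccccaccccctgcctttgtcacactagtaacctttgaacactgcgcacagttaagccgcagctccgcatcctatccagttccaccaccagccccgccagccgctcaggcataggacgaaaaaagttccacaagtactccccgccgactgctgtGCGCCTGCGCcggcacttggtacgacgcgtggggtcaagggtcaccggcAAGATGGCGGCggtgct
Cox7a1: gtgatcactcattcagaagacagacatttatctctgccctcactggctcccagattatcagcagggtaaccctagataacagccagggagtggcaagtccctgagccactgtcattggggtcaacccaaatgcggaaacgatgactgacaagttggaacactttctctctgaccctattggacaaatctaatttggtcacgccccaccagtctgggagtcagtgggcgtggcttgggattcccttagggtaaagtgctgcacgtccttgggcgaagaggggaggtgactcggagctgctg
The Sdha window held 3 NRF1 matches, the Sdhd window 1 each of NRF1, GABPA and ERR (the last on the reverse strand, as was the GABPA match), the Ndufs6 window 1 NRF1 and 1 YY1 match, and the Cox7a1 window none of these.

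Of the 78 members, 65 had a promoter in that table. NRF1 letters stood in 16 of 65 (24.6%) and in 5.19% of all 27025 genes with a promoter there, a gene being counted if any of its promoters matched. GABPA letters stood in 17 (26.2%, against 9.93%), YY1 in 4 (6.15%, against 0.755%) and ERR in 2 (3.08%, against 1.43%), while a TATA box (TATAAA) stood in 8 (12.3%, against 15.7%). The NRF1 letters were present in 3 of 6 members higher in day 6 cells than in astrocytes, in 5 of 23 lower ones and in 8 of 36 not called. GABPA letters were present in 2, 7 and 8 of the same. A match describes the letters of a window and shows no binding.

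Complex I, the largest complex, takes electrons from NADH. In day 6 cells 13 of its 34 subunits fell and 3 rose relative to astrocytes (25.1% lower and 23.8% higher among all genes, 32.9% and 47.8% among genes of like brightness), with a median of -0.15. In astrocyte iPSCs 14 fell and 2 rose (26.2% and 24.8% of all genes, median -0.17), and in NSCs 18 fell and 2 rose (23.3% and 22.6%, median -0.25). The lowest was Ndufa3, an accessory subunit of the membrane arm. Its log2 intensity was 9.60 and 9.78 in astrocyte iPSCs, 9.77 and 10.00 in MEF iPSCs, 9.81, 9.68 and 9.76 in day 6 cells, 9.89 and 9.38 in NSCs, and 10.48, 10.50 and 10.54 in astrocytes. All 3 astrocyte arrays lay above the 9 others. The log2 fold change against astrocytes was -0.82 ± 0.13 (SE, adjusted p = 0.000201) in astrocyte iPSCs, -0.75 ± 0.12 (0.00017) in day 6 cells and -0.87 ± 0.13 (0.000158) in NSCs.

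Ndufc1, another small membrane subunit, was lower than in astrocytes by a log2 fold change of -0.71 ± 0.13 in astrocyte iPSCs, -0.68 ± 0.12 in day 6 cells and -0.62 ± 0.13 in NSCs. Ndufs3 and Ndufs8 are core subunits of the arm that carries electrons to ubiquinone. Ndufs3 had -0.60 ± 0.07, -0.59 ± 0.07 and -0.48 ± 0.07 in the same order, and Ndufs8 -0.62 ± 0.07, -0.27 ± 0.07 and -0.28 ± 0.07. Their astrocyte arrays did not overlap any others. Ndufs4, an accessory subunit whose loss in mice is a model of Leigh syndrome, fell by 0.53 in astrocyte iPSCs and in day 6 cells and by 0.34 in NSCs. The largest adjusted p of these 12 differences was 0.0121. Ndufa4 is counted with complex I by its symbol, although it is now assigned to complex IV. It was lower by -0.47 ± 0.08, -0.37 ± 0.08 and -0.39 ± 0.08. Ndufv1, which holds the NADH-binding flavin site, was not called in astrocyte iPSCs or day 6 cells against astrocytes and was lower in NSCs (-0.41 ± 0.08, adjusted p = 0.00158).

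Ndufs6, a zinc-binding accessory subunit near the NADH site, was among the 3 that rose in day 6 cells. Its log2 intensity was 9.66 and 9.83 in astrocyte iPSCs, 9.61 and 9.81 in MEF iPSCs, 10.02, 9.84 and 9.88 in day 6 cells, 9.19 and 9.01 in NSCs, and 9.54, 9.35 and 9.33 in astrocytes. Day 6 cells lay above every other array and NSCs below every other array. The margin over the iPSC arrays was narrow, 9.84 against 9.83 at the closest. Astrocyte iPSCs and day 6 cells were not called apart (-0.16 ± 0.10, adjusted p = 0.29). Day 6 cells exceeded NSCs by 0.81 ± 0.10 (adjusted p = 6.14e-05), a 1.76-fold difference, and astrocytes by 0.51 ± 0.09 (adjusted p = 0.000498). Ndufb6 and Ndufb8, accessory subunits of the membrane arm, also exceeded their astrocyte levels in day 6 cells, by 0.43 ± 0.09 and 0.36 ± 0.09.

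Ndufc2, an accessory subunit, marked the NSCs. It stood at 11.31 and 11.34 in NSCs, against 10.66, 10.73 and 10.54 in day 6 cells and 11.01, 10.49 and 10.87 in astrocytes. Both iPSC groups were lower, at 10.41 and 10.39 in astrocyte iPSCs and 10.32 and 10.12 in MEF iPSCs. The NSC arrays lay above all others. Day 6 cells differed from NSCs by -0.68 ± 0.13 (adjusted p = 0.00144) and NSCs from astrocytes by 0.54 ± 0.13 (adjusted p = 0.00483). With cyclic loess the second difference was 0.26 and no longer called (adjusted p = 0.135). Ndufa11, an accessory subunit, went the other way, at 9.06 and 8.79 in NSCs, against 9.71, 9.61 and 9.63 in astrocytes (-0.72 ± 0.11, adjusted p = 0.000129). Day 6 cells, at 9.63, 9.37 and 9.49, were above NSCs by 0.57 ± 0.11 (adjusted p = 0.00117). In all, 9 of 34 complex I subunits were higher and 3 lower in day 6 cells than in NSCs (median 0.12). Among all genes 20% were higher and 18.4% lower (median 0.07), and among genes of like brightness 30.8% and 24.7%. Ndufb3, a small membrane-arm subunit, was the highest complex I subunit in astrocyte iPSCs minus astrocytes, at 0.52 ± 0.16 (adjusted p = 0.0177), and was at 0.41 (adjusted p = 0.151) without astrocyte iPSC replicate 1 and not called without astrocytes replicate 2 or 3. Ndufa2, an accessory subunit, was the lowest in astrocyte iPSCs minus day 6 cells, at -0.36 ± 0.09 (adjusted p = 0.0081), and was at -0.32 (adjusted p = 0.077) without the same array.

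Complex II, succinate dehydrogenase, belongs to both the citric acid cycle and the chain, and its 4 subunits split. Sdha is the flavoprotein that oxidises succinate. Its log2 intensity was 9.93 and 9.91 in astrocyte iPSCs, 10.01 and 9.93 in MEF iPSCs, 9.96, 10.04 and 10.12 in day 6 cells, 10.09 and 10.12 in NSCs, and 10.94, 10.86 and 11.14 in astrocytes. The astrocytes stood apart, and the other 9 arrays lay between 9.91 and 10.12. Relative to astrocytes Sdha was at -1.06 ± 0.08 (adjusted p = 6.32e-07, 0.481 of the astrocyte intensity) in astrocyte iPSCs, -0.94 ± 0.08 (6.91e-07, 0.521) in day 6 cells and -0.87 ± 0.08 (5.04e-06, 0.547) in NSCs.

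Sdhc, one of the membrane anchors that bind ubiquinone, took a different order. It stood at 9.64 and 9.61 in astrocyte iPSCs, 10.04 and 10.03 in MEF iPSCs, 9.87, 9.90 and 9.83 in day 6 cells, 10.20 and 10.19 in NSCs, and 10.65, 10.43 and 10.42 in astrocytes. No group overlapped another, and astrocyte iPSCs were the lowest. The log2 fold change against astrocytes was -0.87 ± 0.08 (adjusted p = 1.28e-06) in astrocyte iPSCs, -0.63 ± 0.07 (8.21e-06) in day 6 cells and -0.31 ± 0.08 (0.00571) in NSCs. Day 6 cells were below NSCs by -0.33 ± 0.08 (adjusted p = 0.00512). Astrocyte iPSCs were below MEF iPSCs by -0.41 ± 0.08 (adjusted p = 0.016), with -0.39 to -0.42 and adjusted p from 0.0676 to 0.0976 when any 1 of the 4 iPSC arrays was left out. They were below day 6 cells by -0.24 ± 0.08 (adjusted p = 0.0327), with adjusted p from 0.053 to 0.145 when any 1 array of either group was left out.

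Sdhd, the other anchor, was higher outside astrocytes. It stood at 9.93 and 9.90 in astrocyte iPSCs, 9.74 and 9.64 in MEF iPSCs, 9.94, 9.86 and 9.96 in day 6 cells, 9.97 and 9.85 in NSCs, and 9.64, 9.56 and 9.51 in astrocytes. The astrocytes were the lowest of all arrays, if narrowly against MEF iPSCs. The differences were 0.34 ± 0.07 (adjusted p = 0.00114) in astrocyte iPSCs, 0.35 ± 0.06 (0.000452) in day 6 cells and 0.34 ± 0.07 (0.00144) in NSCs, and with cyclic loess they were 0.03, 0.05 and 0.12, none of them called. Sdhb, the iron-sulfur subunit, was lowest in the iPSCs, at 9.55 and 9.53 in astrocyte iPSCs and 9.59 and 9.41 in MEF iPSCs, against 9.86, 9.91 and 9.81 in day 6 cells, 9.89 and 9.95 in NSCs and 10.01, 9.88 and 9.94 in astrocytes. All 4 iPSC arrays lay below the other 8. Astrocyte iPSCs differed from day 6 cells by -0.32 ± 0.07 (adjusted p = 0.00634) and from astrocytes by -0.41 ± 0.07 (adjusted p = 0.000532).

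**Figure D3:**
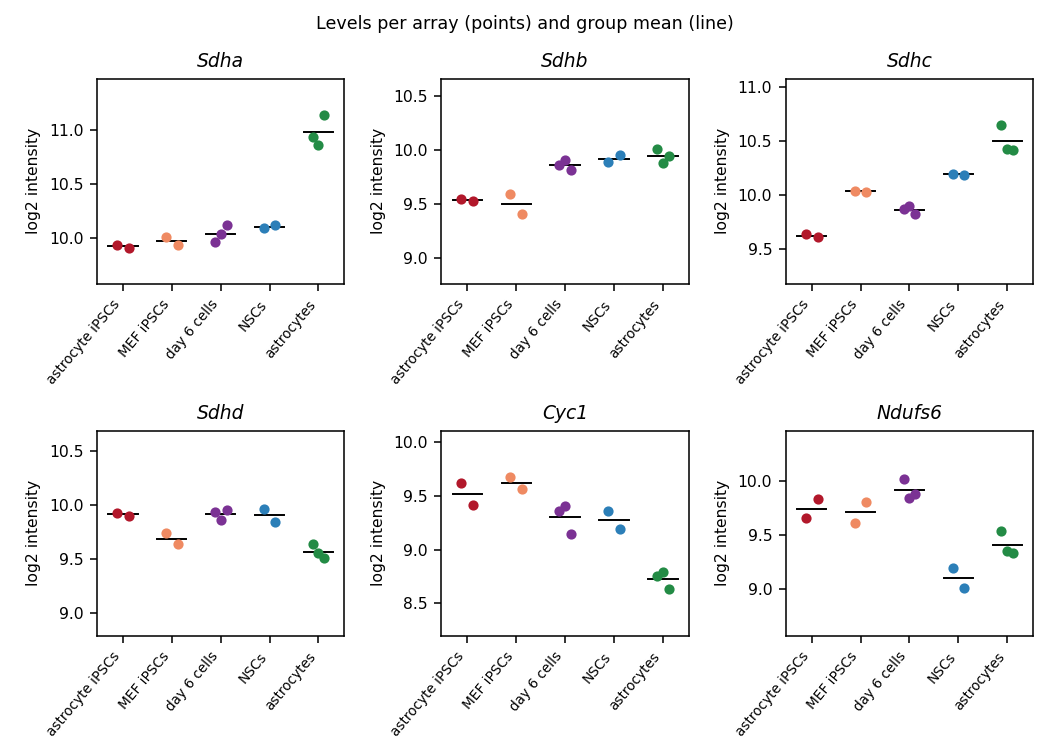
Log2 intensity per array (points) and group mean (line) for the 4 complex II subunits, Cyc1 of complex III and Ndufs6 of complex I in the 5 groups, on axes that do not start at 0 and span the same number of log2 units. Sdha is highest in the 3 astrocyte arrays, at 10.86 to 11.14, Sdhc falls into 5 separate groups, and Cyc1 is lowest in astrocytes.

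In complex III, which passes electrons to cytochrome c, 2 of 9 subunits were higher and 1 lower in day 6 cells than in astrocytes (23.8% and 25.1% among all genes, median -0.03). Cyc1, the haem protein cytochrome c1, had the widest difference of these. It stood at 9.62 and 9.41 in astrocyte iPSCs, 9.67 and 9.56 in MEF iPSCs, 9.36, 9.40 and 9.14 in day 6 cells, 9.36 and 9.19 in NSCs, and 8.75, 8.79 and 8.63 in astrocytes. All astrocyte arrays lay below all others, and the 4 iPSC arrays lay above the rest. The log2 fold change against astrocytes was 0.79 ± 0.10 (adjusted p = 3.63e-05, 1.73-fold) in astrocyte iPSCs, 0.58 ± 0.09 (0.000199, 1.49-fold) in day 6 cells and 0.55 ± 0.10 (0.00075, 1.47-fold) in NSCs. Day 6 cells and NSCs were close, at 0.02 ± 0.10.

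Uqcrb, which helps bind ubiquinone, went the other way. It was at 11.22 and 11.41 in astrocyte iPSCs, 11.32, 11.29 and 11.24 in day 6 cells and 11.20 and 11.57 in NSCs, against 11.79, 11.87 and 11.61 in astrocytes. The differences were -0.44 ± 0.11, -0.48 ± 0.10 and -0.37 ± 0.11, with a largest adjusted p of 0.0169. The NSC value was -0.19 (adjusted p = 0.24) without NSC replicate 1 and -0.31 (adjusted p = 0.06) without astrocytes replicate 2, and that of astrocyte iPSCs -0.35 (adjusted p = 0.0706) without their replicate 1. Uqcrfs1, the Rieske iron-sulfur protein, was higher by 0.25 ± 0.08 (adjusted p = 0.0242) in day 6 cells, but its arrays overlapped with those of astrocytes, and it was not called with cyclic loess (0.07) or without any 1 of astrocytes replicate 2 or 3 and day 6 replicate 1 or 2 (adjusted p from 0.0707 to 0.101). Uqcrc1 and Uqcrc2, the core proteins, were not called in any comparison. Against NSCs, day 6 cells had the small subunits Uqcr11 and Uqcrq higher, by 0.42 ± 0.11 and 0.22 ± 0.07. The first call was lost without NSC replicate 2, and the second without either NSC array or without day 6 replicate 1 or 3. The Uqcrq call was also lost with 16 subtracted (adjusted p = 0.0695), arrays centred (0.0812), cyclic loess (0.064), a trend and robust spread model (0.0528) and these 2 groups alone (0.0545). Between astrocyte iPSCs and day 6 cells 0 of 9 complex III subunits were called by limma.

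Complex IV, cytochrome c oxidase, reduces oxygen to water. Of its 14 subunits 6 were higher and 0 lower in astrocyte iPSCs than in day 6 cells (15.5% and 14% among all genes), with a median of 0.23 against -0.03 over all genes. Those 6 were Cox7a1, Cox7b, Cox6c, Cox7b2, Cox5a and Cox7a2. Without astrocyte iPSC replicate 1, 3 of the 6 lost the call: Cox7b2 (0.29, adjusted p = 0.052), Cox5a and Cox7a2. Against astrocytes, day 6 cells had 5 lower and 0 higher (25.1% and 23.8% of all genes, median -0.13) and NSCs 4 lower and 0 higher (23.3% and 22.6%, median -0.19), while astrocyte iPSCs had 4 higher and 3 lower (24.8% and 26.2%, median 0.06).

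Cox7a1, the isoform of subunit VIIa known from heart and skeletal muscle, had the widest range of group means in complex IV, 1.05. Its log2 intensity was 7.73 and 7.57 in astrocyte iPSCs, 7.57 and 7.57 in MEF iPSCs, 6.63, 6.69 and 6.81 in day 6 cells, 6.49 and 6.71 in NSCs, and 7.67, 7.60 and 7.42 in astrocytes. Day 6 cells and NSCs lay below all 7 other arrays. The signal was above the array median on 11 of 12 arrays, and in day 6 cells and NSCs it lay near that median. Astrocyte iPSCs exceeded day 6 cells by 0.94 ± 0.10 (adjusted p = 2.29e-05, 1.91-fold), and relative to astrocytes day 6 cells were at -0.85 ± 0.09 (5.5e-06) and NSCs at -0.96 ± 0.10 (7.14e-06). Astrocyte iPSCs and astrocytes differed by 0.08 ± 0.10 and were not called apart. Of the 5 muscle markers, Ckm, creatine kinase of muscle, stood between 6.51 and 7.03 and Myog, a muscle transcription factor, between 6.02 and 6.44 over all 12 arrays. The 5 had a summed intensity of 665 to 700 in astrocyte iPSCs, 577 to 668 in day 6 cells, 476 to 507 in NSCs and 510 to 580 in astrocytes. Cox7a2, the widespread partner isoform, moved little. It was at 9.41 and 9.43 in astrocyte iPSCs, 9.40 and 9.29 in MEF iPSCs, 9.27, 9.23 and 9.07 in day 6 cells, 9.04 and 9.13 in NSCs, and 9.28, 9.20 and 9.18 in astrocytes. Its difference between astrocyte iPSCs and day 6 cells, 0.23 ± 0.08 (adjusted p = 0.0442), was lost in several alternatives, among them without either astrocyte iPSC array (adjusted p = 0.146 and 0.169). Cox5a, an accessory subunit on the matrix side, was higher in astrocyte iPSCs than in day 6 cells by 0.29 ± 0.09 (adjusted p = 0.025), and by 0.23 (adjusted p = 0.194) without astrocyte iPSC replicate 1, and it was not called without day 6 replicate 1 or 2 either.

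Cox6c, an accessory subunit, was called in 4 comparisons. It stood at 11.60 and 11.52 in astrocyte iPSCs, 11.33 and 11.27 in MEF iPSCs, 11.14, 11.01 and 11.06 in day 6 cells, 11.08 and 10.89 in NSCs, and 11.85, 11.72 and 11.81 in astrocytes. Astrocytes were the highest, and day 6 cells and NSCs overlapped at the bottom. Relative to astrocytes the values were -0.23 ± 0.08 in astrocyte iPSCs (adjusted p = 0.0279), -0.72 ± 0.07 in day 6 cells (3.27e-06) and -0.81 ± 0.08 in NSCs (4.83e-06), and astrocyte iPSCs exceeded day 6 cells by 0.49 ± 0.08 (adjusted p = 0.000514). The first of these was not called without either astrocyte iPSC array or without astrocytes replicate 1 or 3 (adjusted p from 0.0552 to 0.168).

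Of the isoform pairs, Cox6a1, the widespread form of subunit VIa, was lower than in astrocytes by -0.43 ± 0.10 in astrocyte iPSCs, -0.36 ± 0.09 in day 6 cells and -0.48 ± 0.10 in NSCs (largest adjusted p 0.00456), and its muscle partner Cox6a2 was not called in any comparison. Cox6b1, the widespread form of VIb, was at -0.47 ± 0.08 in astrocyte iPSCs and -0.25 ± 0.07 in day 6 cells. Its testis partner Cox6b2 stood at 7.96 and 7.72 in astrocyte iPSCs, 7.91, 7.65 and 7.81 in day 6 cells and 7.70 and 7 in NSCs, against 8.64, 8.33 and 8.03 in astrocytes. The NSC arrays were far apart, and the NSC difference was -0.98 ± 0.20 (adjusted p = 0.00177). In day 6 cells it was -0.54 ± 0.18 (adjusted p = 0.0281), which was -0.39 without astrocytes replicate 1 (adjusted p = 0.123) and was not called without astrocytes replicate 2 or day 6 replicate 2 or 3. Cox8a and Cox8c were not called in any comparison, and Cox8b, a muscle form, was called once (day 6 cells minus NSCs, 0.38 ± 0.12, adjusted p = 0.0278), a call lost without either NSC array or without day 6 replicate 2 or 3. Cox8b, Cox8c and Cox7b2 were dim, above the array median on fewer than 2 arrays.

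**Figure D4:**
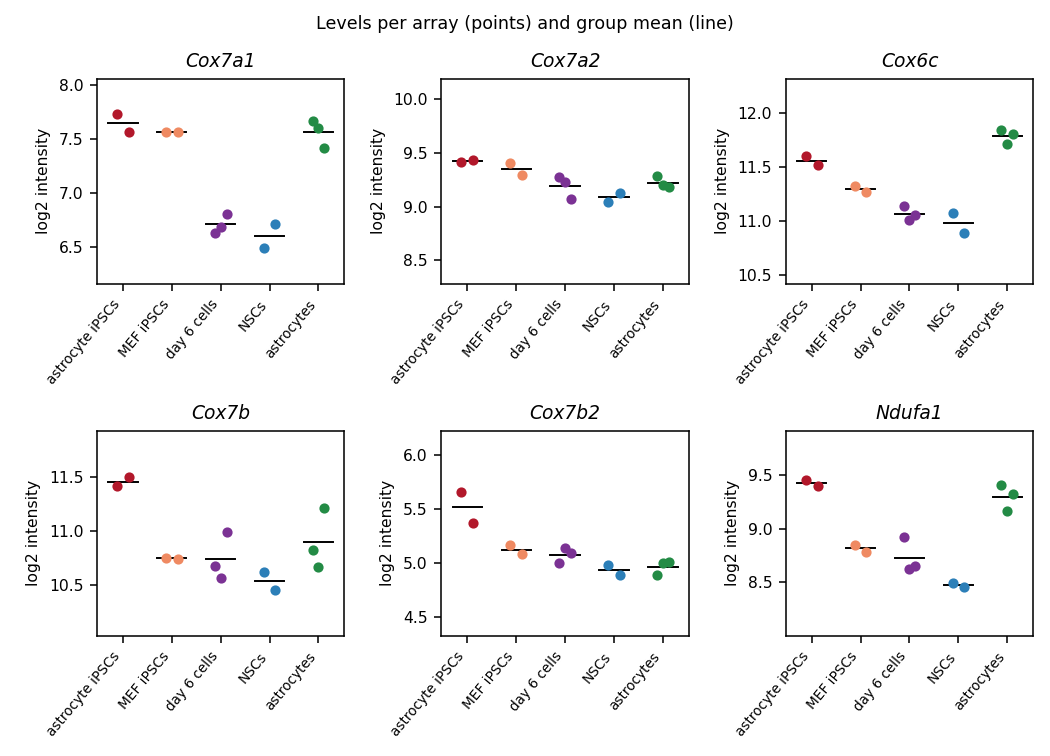
Log2 intensity per array (points) and group mean (line) for 5 complex IV subunits and the X-linked complex I subunit Ndufa1, on axes that do not start at 0 and span the same number of log2 units. Cox7a1 and Cox6c are low in day 6 cells and NSCs, Cox7a2 stays between 9.04 and 9.43, and Cox7b and Ndufa1 are higher in astrocyte iPSCs than in MEF iPSCs.

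The subunits called between the iPSC groups were Ndufa1, Cox7b and Cox7b2, all higher in astrocyte iPSCs, and Sdhc, lower there. Ndufa1, a membrane-arm subunit needed for complex I assembly, stood at 9.45 and 9.39 in astrocyte iPSCs and 8.85 and 8.78 in MEF iPSCs (0.61 ± 0.11, adjusted p = 0.00785). Cox7b stood at 11.41 and 11.5 in astrocyte iPSCs and 10.75 and 10.74 in MEF iPSCs (0.71 ± 0.17, adjusted p = 0.036). Cox7b2, its testis isoform, stood at 5.66 and 5.37 in astrocyte iPSCs and 5.17 and 5.08 in MEF iPSCs (0.39 ± 0.10, adjusted p = 0.0464). No arrays overlapped between the 2 groups in these genes. Without astrocyte iPSC replicate 1 the adjusted p was 0.0548 for Ndufa1, 0.109 for Cox7b and 0.296 for Cox7b2, and without MEF iPSC replicate 2 it was 0.0749, 0.172 and 0.258. Cox7b was also not called without astrocyte iPSC replicate 2 (adjusted p = 0.176), MEF iPSC replicate 1 (0.164) or day 6 replicate 1 (0.0537), or with cyclic loess (0.0524). Cox7b2 was also not called with arrays centred (0.0785), with the replicate number as a block (0.0649), with a batch term for the replicate 1 arrays (0.0504), with these 2 groups alone (0.147), or without MEF iPSC replicate 1, astrocytes replicate 2 or 3, or any 1 NSC or day 6 array (0.0524 to 0.137).

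Ndufa1 and Cox7b lie on the X chromosome, as does Ndufb11, a complex I subunit that was not called (0.34 ± 0.11, adjusted p = 0.119). Of all 739 X-linked genes measured, 167 were higher and 2 lower in astrocyte iPSCs than in MEF iPSCs (22.6% higher), against 2.52% higher and 2.58% lower of 19106 autosomal genes. Among genes above the median signal, the median log2 fold change was 0.39 over 340 X-linked genes and 0 over 10770 autosomal ones. Xist, the RNA that coats the inactive X chromosome, stood at 8.45 and 8.62 in astrocyte iPSCs and 5.74 and 5.94 in MEF iPSCs. The Y-linked gene Eif2s3y stood at 5.43 and 5.88 in astrocyte iPSCs and 8.55 and 8.42 in MEF iPSCs. Uty, also Y-linked, stood at 5.27 and 5.57 against 7.36 and 7.24. Y-linked Kdm5d was alike in both, at 5.18 and 5.27 against 5.18 and 5.2, and ran from 5.84 to 6.61 in the other groups. Xist stood at 9.99, 9.39 and 10.22 in astrocytes and 9.91, 9.38 and 10.23 in day 6 cells, by replicate number, with 10.08 and 9.77 in NSCs. Eif2s3y stood at 7.43, 6.76 and 6.5 in astrocytes and 7.68, 7.5 and 6.86 in day 6 cells, with 7.84 and 7.59 in NSCs. The part of the sex chromosomes in the subunit differences was not tested.

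Ndufa1 and Cox7b were also higher in astrocyte iPSCs than in day 6 cells. Ndufa1 stood at 8.92, 8.62 and 8.65 in day 6 cells, 8.49 and 8.46 in NSCs, and 9.40, 9.16 and 9.32 in astrocytes. Astrocyte iPSCs thus lay beside astrocytes, and exceeded day 6 cells by 0.69 ± 0.10 (adjusted p = 0.000279). Relative to astrocytes, day 6 cells were at -0.56 ± 0.09 (adjusted p = 0.000207) and NSCs at -0.82 ± 0.10 (adjusted p = 3.09e-05). Cox7b, at 10.67, 10.56 and 10.99 in day 6 cells, 10.62 and 10.45 in NSCs and 10.82, 10.66 and 11.21 in astrocytes, was higher in astrocyte iPSCs than in day 6 cells by 0.71 ± 0.16 (adjusted p = 0.00458). It was higher than in astrocytes by 0.56 ± 0.16 (adjusted p = 0.0102), but not with cyclic loess (0.16) or without astrocyte iPSC replicate 2 (0.51, adjusted p = 0.0677).

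Complex V makes ATP and has 17 subunits here. Day 6 cells had 6 lower and 1 higher than astrocytes (25.1% and 23.8% among all genes, 32.9% and 47.8% among genes of like brightness, median -0.17). Astrocyte iPSCs had 6 lower and 2 higher (26.2% and 24.8% of all genes, median -0.09), and NSCs 4 lower and 1 higher (23.3% and 22.6%, median -0.10). Atp5b, the catalytic beta subunit, was tight within groups. It stood at 12.24 and 12.16 in astrocyte iPSCs, 12.24 and 12.26 in MEF iPSCs, 12.21, 12.21 and 12.22 in day 6 cells, 12.36 and 12.41 in NSCs, and 12.50, 12.51 and 12.46 in astrocytes. Astrocytes lay above all others. The difference from astrocytes was -0.29 ± 0.06 (adjusted p = 0.00114) in astrocyte iPSCs and -0.28 ± 0.05 (adjusted p = 0.000746) in day 6 cells. Its alpha partner Atp5a1 was not called in any comparison, and its difference between day 6 cells and astrocytes was -0.11 ± 0.07.

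Differences in the peripheral and membrane parts went both ways, and some subunits there were not called in any comparison. Atp5md, a small membrane subunit, was lower than in astrocytes by -0.50 ± 0.11 in astrocyte iPSCs, -0.37 ± 0.10 in day 6 cells and -0.56 ± 0.11 in NSCs, and Atp5j, coupling factor 6 of the stalk, by -0.52 ± 0.07, -0.28 ± 0.07 and -0.30 ± 0.07 (largest adjusted p of the 6, 0.00815). Subunit c, which forms the rotating ring, is encoded by Atp5g1, Atp5g2 and Atp5g3 with the same mature protein. Atp5g3 stood at 10.76 and 10.84 in astrocyte iPSCs, 10.76 and 10.80 in MEF iPSCs, 10.79, 10.79 and 10.86 in day 6 cells and 10.83 and 10.77 in NSCs, against 10.51, 10.45 and 10.47 in astrocytes. All 3 astrocyte arrays were the lowest. The differences, 0.32 ± 0.06, 0.34 ± 0.05 and 0.32 ± 0.06 in astrocyte iPSCs, day 6 cells and NSCs, were called (largest adjusted p 0.000917), but with cyclic loess they were -0.06, -0.04 and 0.04, the first pair of opposite sign, and none was called. Atp5g1 was not called in any comparison, although its 4 iPSC arrays, at 11.49 and 11.36 in astrocyte iPSCs and 11.56 and 11.64 in MEF iPSCs, lay above all others, which ran from 10.59 to 11.21. Atp5g2 was not called, and its NSC arrays stood at 11.78 and 10.94. Against NSCs, day 6 cells had Atp5l, a subunit of the membrane part, higher by 0.35 ± 0.10 (adjusted p = 0.013), but by 0.24 (adjusted p = 0.14) without NSC replicate 1 and by 0.25 (adjusted p = 0.0638) with cyclic loess.

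Seen by group, the astrocytes lay above all 9 other arrays in 22 of 78 subunits (28.2%), where this held for 16.6% of all genes, and below them in 3 (3.85%, against 14%). The 22 were spread over the chain: Ndufa3, Ndufa4, Ndufa6, Ndufa13, Ndufb9, Ndufb10, Ndufc1, Ndufs3, Ndufs4 and Ndufs8 in complex I, Sdha and Sdhc in complex II, Uqcrb in complex III, Cox6a1, Cox6b1, Cox6b2 and Cox6c in complex IV, and Atp5b, Atp5j, Atp5j2, Atp5l and Atp5md in complex V. The NSCs lay below all other arrays in 12 (15.4%, against 10.5%) and above in 2 (2.56%, against 9.03%). The 4 iPSC arrays lay above the rest in 4 (Atp5g1, Cyc1, Atp5k and Cox7a2, against 9.44% of all genes) and below in 6 (Atp5j, Ndufa2, Ndufs8, Sdhb, Ndufc2 and Cox6b1, against 8.28%). Day 6 cells lay above all others in 2 (Ndufs6 and Ndufb6, against 5.36%) and below in 1 (Ndufs7, against 4.38%). Together with the NSCs they lay below the remaining 7 arrays in 3 (Cox6c, Ndufv3 and Cox7a1, against 2.93%) and above in 0 (against 2.89%). Astrocyte iPSCs alone lay above all others in 4 (Cox5a, Cox7a2, Cox7b and Cox7b2, against 6.58%) and below in 5 (Sdha, Sdhc, Atp5j, Ndufs8 and Uqcrh, against 4.36%). MEF iPSCs alone lay above in 4 (Cox5b, Uqcr10, Atp5g1 and Uqcrc1, against 5.02%) and below in 4 (Atp5pb, Ndufc1, Ndufs5 and Ndufc2, against 4.32%).

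Other mitochondrial gene lists, drawn up by function, were counted beside the chain. Their counts are given under the main scaling only, without cyclic loess and without shares among genes of like brightness. The shares of all genes to read them against are 23.8% higher and 25.1% lower in day 6 cells minus astrocytes, 24.8% and 26.2% in astrocyte iPSCs minus astrocytes, 22.6% and 23.3% in NSCs minus astrocytes, and 20% and 18.4% in day 6 cells minus NSCs. The mitochondrial ribosome translates the chain subunits encoded in mitochondrial DNA. Of 40 of its proteins, 35 were higher and 1 lower in day 6 cells than in astrocytes (median 0.48), 35 and 0 in astrocyte iPSCs (median 0.55) and 14 and 2 in NSCs (median 0.17). Mrpl18 rose by 1.18 ± 0.11 and Mrps30 by 1.11 ± 0.09 in day 6 cells. Against NSCs, day 6 cells had 27 of 40 higher and 0 lower (median 0.28). Genes for the replication, transcription and RNA processing of mitochondrial DNA had 12 of 16 higher and 1 lower in day 6 cells than in astrocytes (median 0.61), 13 and 1 in astrocyte iPSCs (median 0.58) and 6 and 1 in NSCs (median 0.20). Tfam, which packages and transcribes mitochondrial DNA, averaged 8.37 in astrocyte iPSCs, 7.70 in day 6 cells, 7.51 in NSCs and 6.75 in astrocytes, and Twnk, the replicative helicase, exceeded its astrocyte level by 1.37 ± 0.12 in day 6 cells.

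Assembly factors, which build the complexes, went both ways. In day 6 cells 16 of 41 were higher and 7 lower than in astrocytes (23.8% and 25.1% among all genes, median 0.17), and 14 were higher and 0 lower than in NSCs (20% and 18.4%, median 0.20). Sco1, which delivers copper to complex IV, was at 1.05 ± 0.12 in day 6 cells minus astrocytes, and Surf1, another complex IV factor, was at -0.95 ± 0.07. Genes of the citric acid cycle were lower than in astrocytes in 8 of 17 cases and higher in 2 in day 6 cells (median -0.20), lower in 12 and higher in 2 in astrocyte iPSCs (median -0.29), and lower in 7 and higher in 3 in NSCs (median -0.20). Pcx, pyruvate carboxylase, which refills the cycle, was at -3.30 ± 0.07 in day 6 cells and Idh2 at -0.86 ± 0.08.

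Fatty acid oxidation, which feeds electrons to the chain, had 14 of 17 genes lower and 0 higher in day 6 cells than in astrocytes (median -0.76), 14 and 0 in astrocyte iPSCs (median -0.67) and 15 and 1 in NSCs (median -0.91). Cpt1a, the carnitine transferase that admits fatty acids, was at -2.84 ± 0.11 in day 6 cells and Hadha, of the trifunctional protein, at -1.29 ± 0.07. Against day 6 cells Cpt1a was higher in astrocyte iPSCs by 1.68 ± 0.12. Glycolysis genes had 8 of 21 higher and 8 lower in day 6 cells than in astrocytes (23.8% and 25.1% among all genes, median 0.14), among the lower ones the pyruvate dehydrogenase kinases Pdk4 (-3.39 ± 0.10) and Pdk2 (-3.29 ± 0.09), which restrain entry of pyruvate into the cycle. They had 11 higher and 2 lower in day 6 cells than in NSCs (median 0.29).

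Regulators of mitochondrial biogenesis had 8 of 18 higher and 5 lower in day 6 cells than in astrocytes (23.8% and 25.1% among all genes, median 0.14). Ppargc1a, the coactivator PGC-1alpha known for raising chain genes in energy-demanding tissues, averaged 5.45 in astrocyte iPSCs, 5.43 in day 6 cells, 8.47 in NSCs and 9.65 in astrocytes. Day 6 cells differed from astrocytes by -4.22 ± 0.14 (adjusted p = 5.79e-10) and from NSCs by -3.04 ± 0.15 (adjusted p = 4.88e-08). In day 6 cells and astrocyte iPSCs the signal was near the lower quartile of the arrays, so the size of the fold is uncertain. The part of Ppargc1a in the subunit levels was not tested. Its relative Pprc1 was higher by 1.75 ± 0.10 and Gabpb1, a partner of GABPA, by 1.24 ± 0.10 in day 6 cells than in astrocytes. Import and dynamics genes had 13 of 24 higher and 7 lower (median 0.27), with the matrix chaperone Hspd1 at 1.3 ± 0.06 and the ADP/ATP carrier Slc25a4 at -1.39 ± 0.08. Antioxidant genes had 4 of 10 higher and 3 lower, with Sod2, the mitochondrial superoxide dismutase, at 1.37 ± 0.08. Other chain genes outside the rule had 3 of 10 higher and 1 lower, and the carrier cytochrome c itself, Cycs, was higher by 0.29 ± 0.07.

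**Figure D5:**
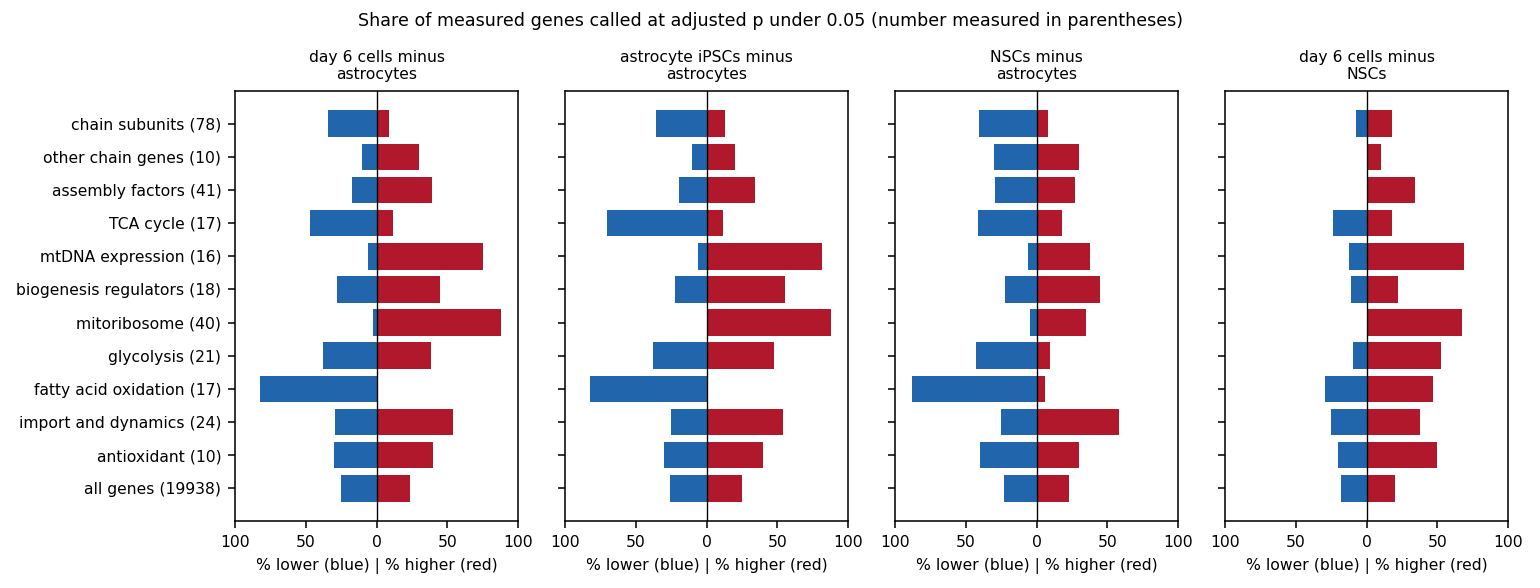
Percent of measured genes called lower (blue, to the left) and higher (red, to the right) at an adjusted p under 0.05 for the chain subunits, 10 other mitochondrial and metabolic lists and all genes, in 4 comparisons. Mitochondrial ribosome genes are 35 of 40 higher in day 6 cells than in astrocytes, where chain subunits are 7 of 78 higher and fatty acid oxidation genes 0 of 17. All shares are from the main scaling, without cyclic loess.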

How the data were processed

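RNA of 12 samples was measured on microarrays. The deposited intensity values were made by the authors with RMA, which corrects background, normalizes arrays by quantiles and summarises probes, per the submitters' processing notes (version not given in the sources used here). They are on a linear scale, from 20.1877 to 15435.8, so log2 was taken first. Of 28853 probe sets, 21789 had 1 gene symbol in GEO's platform annotation, 1621 several and 5443 none, and the brightest single-symbol probe set was used per gene. Where members had over 1 probe set (15 genes), all 28 called differences had the same sign in each. One model with a mean per group over all 12 arrays was fitted to 19938 genes with limma 3.58.1 in R 4.3.3 (7 residual degrees of freedom), two-sided, with p-values adjusted over all genes by Benjamini-Hochberg. A call means an adjusted p under 0.05. All values in the text are on the log2 intensity scale and all ± values on differences are standard errors from this fit, unless said otherwise. Levels of different genes are not compared. The number of arrays limits the precision. The code was tested on simulated data.

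Named genes are the called members with the highest and lowest change per complex and comparison, any called member with a 2-fold change, isoform pairs, core subunits, and up to 4 called genes of largest change per other list. Ndufa4, Ndufa11, Ndufb6, Ndufb8, Ndufb11, Ndufc1, Ndufs3, Ndufs4 and Ndufs8 fall outside this rule, were chosen after their values were seen and were not repeated under the alternatives. Some printed differences of other members were not repeated either. These are Sdhc and Ndufa1 against astrocytes, Atp5j in day 6 cells and NSCs minus astrocytes, and Atp5md in astrocyte iPSCs minus astrocytes. Members and lists were chosen with earlier results of these data known. Alternatives covered scaling, probe set choice, dim genes, a constant of 16 in the deposited values, the spread model, the threshold, the replicate number as a block and each array left out. A batch term for the replicate 1 arrays was added after seeing the data, because replicate 1 of astrocytes, day 6 cells and MEF iPSCs deviated together (r of 0.40 to 0.41 across genes). Promoters are RefSeq's, and proteins were not used here. Python 3.11.15, pandas 2.3.3 and matplotlib 3.10.9 drew the figures.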

Additional observations from a re-analysis of the deposited data

How the results depend on the processing

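Under cyclic loess the higher counts were 3 in astrocyte iPSCs minus astrocytes, 2 in day 6 cells minus astrocytes, 8 in day 6 cells minus NSCs and 1 in NSCs minus astrocytes, and the lower counts in the 3 comparisons with astrocytes were 45, 54 and 55 in astrocyte iPSCs, day 6 cells and NSCs. Loess also moved the shares of all genes, which are given above beside these counts. Loess turned the sign of Atp5g3 (-0.06 in astrocyte iPSCs and -0.04 in day 6 cells, minus astrocytes) and, in astrocyte iPSCs minus astrocytes, of Cox5a (-0.01) and Cox7a2 (-0.02), none of them called then, and the cause was not tested. At an adjusted p under 0.01, fewer calls by construction, the higher counts were 5 in astrocyte iPSCs minus astrocytes, 5 in astrocyte iPSCs minus day 6 cells, 1 in astrocyte iPSCs minus MEF iPSCs and 6 in day 6 cells minus NSCs, and the lower counts 3 in astrocyte iPSCs minus day 6 cells, 0 in astrocyte iPSCs minus MEF iPSCs and 2 in day 6 cells minus NSCs. With the fold limit every count was 0 but the lower one in astrocyte iPSCs minus astrocytes, 1. Subtracting 16 gave 3 lower in astrocyte iPSCs minus day 6 cells (13.8% of all genes), and centring 3 lower in day 6 cells minus NSCs (17.9%). Leaving out each array in turn gave higher counts of 6 to 11 in astrocyte iPSCs minus astrocytes, 4 to 10 in astrocyte iPSCs minus day 6 cells, 0 to 3 in astrocyte iPSCs minus MEF iPSCs, 6 to 8 in day 6 cells minus astrocytes, 11 to 15 in day 6 cells minus NSCs and 4 to 8 in NSCs minus astrocytes. The lower counts were 17 to 29, 2 to 7, 0 to 1, 22 to 28, 2 to 6 and 28 to 34 in the same order. A lone array left in a group is assumed to vary like the other groups. With the replicate number as a block, the higher counts were 9, 8, 3, 8, 17 and 5 and the lower 29, 8, 1, 29, 4 and 37. Of 71 named differences 65 kept their call with the block. Shares of all genes are not given for the block, the 0.01 threshold or the arrays left out. For those settings a change in power cannot be told from one in the subunits. Same-numbered arrays of day 6 cells and astrocytes deviated together in 2 of 3 numbers only (r of 0.41, -0.01 and 0.22 across genes). The main fit did not pair them. Xist, however, matched by number, at 9.99, 9.39 and 10.22 in astrocytes and 9.91, 9.38 and 10.23 in day 6 cells. Y-linked Eif2s3y, Uty and Kdm5d fell from replicate 1 to replicate 3 in both groups. Same-numbered arrays of these groups may therefore share a culture, which the labels do not say. Beyond the block fit above, such a pairing was not tested. Of 1771 repeats of the 71 named differences, 1523 kept direction and call, 244 lost the call and 4 changed sign.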
